A study of Juglans regia with 12 samples.

Results

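Of 31425 genes listed for Persian walnut (Juglans regia), 69 stood well above their late-flowering level in flower buds of the early-flowering type. The 69 were chosen by their CPM, the read count scaled to a common library total. A gene was taken when its mean over the early-flowering libraries was at least 5 CPM and its lowest early-flowering value lay above its highest late-flowering value. The log2 ratio of the means, with 0.5 CPM added to each, also had to be at least 2. This is 0.220% of the listed genes, and since the same contrast chose the genes, that contrast is described below and not tested. The early-flowering libraries are labelled precocious walnut (ZS) with an early flower stage, and the late-flowering libraries late fruiting walnut (WS) with a late flower stage. Each type has 3 poly(A) mRNA libraries of flower buds from field-grown plants. The labels do not say whether replicates came from separate trees, and type and bud stage cannot be told apart. In bulk buds, fewer cells of a kind and less RNA per cell cannot be told apart either.

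Flower buds hold meristems that pass from making leaves to making floral organs, under genes such as FT, LEAFY and the MADS-box factors known from Arabidopsis. Precocious walnut types flower unusually soon after sowing, and buds in different states of this transition hold different mixtures of meristem, bract and floral organ tissue. Which of the 69 genes belong to these pathways is not given, because nothing among the files gives names for the IDs. Of 31425 IDs, 0 matched an entry of the reference gene table, so the genes are called by ID, no function is given for any of them, and the labelled tissue was not checked against marker genes. What the IDs do carry is a chromosome, written as a number with the letter D or S, and a serial number along it. The D and S chromosomes are the partners left by an ancient whole-genome duplication in the walnut lineage.

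The genes were of moderate level. As FPKM, which scales counts by gene length and library total, their means over early-flowering libraries ran from 1.53 to 274 with a median of 11.7, and their means over late-flowering libraries ran from 0.242 to 60.2 with a median of 2.21. The other 17254 genes at 5 CPM or more in early-flowering buds had a median of 18.5 FPKM in early-flowering and 17.7 FPKM in late-flowering buds. In early-flowering buds the median of the 69 was thus below that of the others, although their upper quartile, 26.2 FPKM, was above it. In late-flowering buds the rule itself keeps the 69 low. In CPM, 20 genes averaged under 10 in early-flowering buds, 44 averaged 10 to 100, and 5 averaged 100 or more. Together they held 0.188%, 0.203% and 0.220% of the counts of the early-flowering libraries, against 0.0605%, 0.0387% and 0.0173% in late-flowering replicates 1, 2 and 3. Their listed lengths ran from 273 to 3916 bases with a median of 1377, against a median of 1563 for the other genes at 5 CPM or more.

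**Figure D1:**
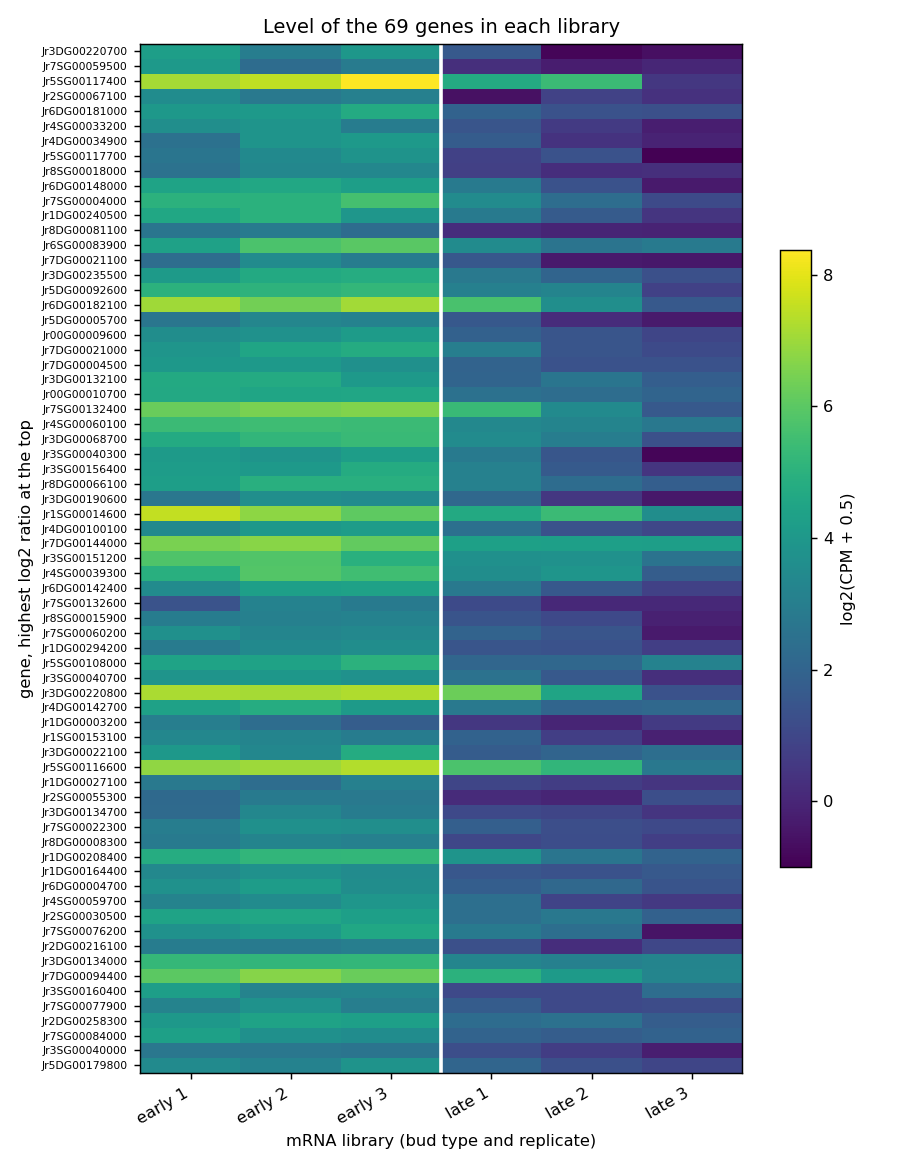
Colour gives log2(CPM + 0.5) of each of the 69 genes (rows, highest log2 ratio at the top) in the 3 early-flowering libraries on the left and the 3 late-flowering libraries on the right of the white line. Late-flowering replicate 1 is the brightest and replicate 3 the darkest of the late-flowering columns for most rows.

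No gene was silent throughout late-flowering buds. Of the 69, 0 had no counts in all late-flowering libraries, 1 had no counts in a single one, and 8 averaged under 1 CPM there. The log2 ratios gathered near the limit, with a median of 2.15 and 43 genes under 2.25. Only 3 genes reached a ratio of 3.

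The log2 ratios include the added 0.5 CPM, which makes them smaller than ratios of the FPKM values given beside them. With the 0.5 CPM added, the highest ratio belonged to Jr3DG00220700, a gene of chromosome 3D listed at 1772 bases. Ranks by plain FPKM ratios can differ. It had 10.6, 4.11 and 8.61 FPKM in early-flowering buds, against 1.45, 0.0241 and 0.0865 FPKM in late-flowering buds, for a log2 ratio of 3.33. Late-flowering replicate 1 set its late-flowering mean almost alone. In the other late-flowering libraries it was at or under the counting floor of 3 counts, 0.128 to 0.178 CPM, with 0.0427 and 0.153 CPM. Jr7SG00059500 had 7.54, 2.06 and 3.28 FPKM in early-flowering buds, against 0.330, 0.159 and 0.237 FPKM in late-flowering buds (log2 ratio 3.25). Here early-flowering replicate 1 stood apart, and the gene had the highest coefficient of variation (SD over mean) of the 69 among early-flowering libraries, at 66.9%.

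Jr5SG00117400 combined a high ratio with a high level. It had 85.3, 112 and 207 FPKM in early-flowering buds, against 16.1, 25.8 and 0.574 FPKM in late-flowering buds, a log2 ratio of 3.23. Late-flowering replicate 3 was nearly without it, while the other late-flowering libraries held clear amounts. Next in ratio came Jr2SG00067100, at 31.2, 18.1 and 22.2 FPKM in early-flowering buds and 0.456, 3.68 and 2.13 FPKM in late-flowering buds (log2 ratio 2.86). For this gene late-flowering replicate 1 was the lowest of its type, the reverse of the common pattern. Jr6DG00181000 averaged 15.1 ± 4.49 FPKM in early-flowering buds and 1.90 ± 0.603 FPKM in late-flowering buds (SD, n = 3 each; log2 ratio 2.76). Jr4SG00033200 averaged 10.3 ± 3.25 FPKM in early-flowering buds and 1.15 ± 0.920 FPKM in late-flowering buds (SD, n = 3 each; log2 ratio 2.75).

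The most abundant of the 69 per length was Jr7DG00144000, a short gene of 318 bases on chromosome 7D. It had 281, 325 and 216 FPKM in early-flowering buds, against 61.7, 60.1 and 58.8 FPKM in late-flowering buds. Its late-flowering values were the most even of all 69, with a coefficient of variation of 2.43%. Jr6DG00182100, also short at 480 bases, came next with 277, 173 and 282 FPKM in early-flowering buds, against 108, 24.8 and 5.43 FPKM in late-flowering buds. Its late-flowering values spanned far more than its early-flowering ones. These 2 genes had similar levels in early-flowering buds and opposite behaviour among late-flowering libraries.

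Of the remaining genes near the top of the level scale, Jr5SG00116600 had 104, 117 and 145 FPKM in early-flowering buds, against 47.5, 32.1 and 5.79 FPKM in late-flowering buds. Jr7DG00094400 had 84.3, 132 and 97.9 FPKM in early-flowering buds, against 41.9, 22.0 and 11.8 FPKM in late-flowering buds. Both had their highest late-flowering value in replicate 1 and their lowest in replicate 3. Jr5DG00092600 had 90.1, 93.0 and 104 FPKM in early-flowering buds, against 22.6, 25.0 and 3.61 FPKM in late-flowering buds. It was steady in early-flowering buds, lower in every late-flowering library and by far the lowest in late-flowering replicate 3.

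**Figure D2:**
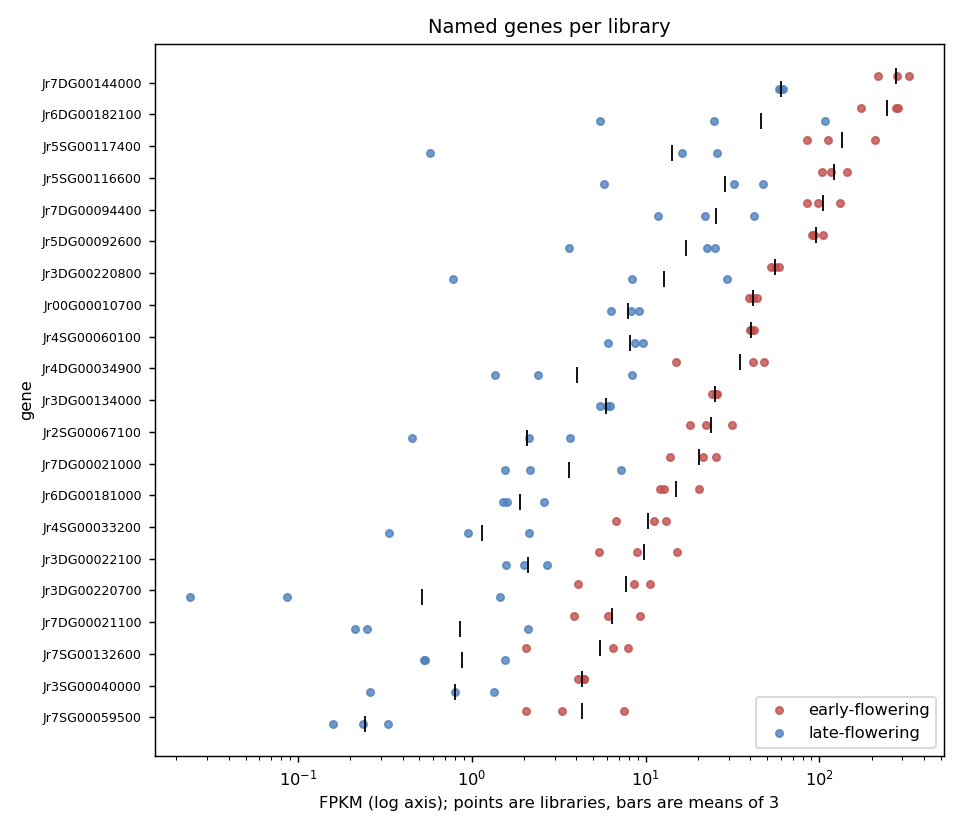
FPKM on a log axis for the genes named for their ratio, level, early-flowering coefficient of variation or run. Genes named only for the limits are not drawn. The order is by mean level in early-flowering buds. Red points are early-flowering and blue points late-flowering libraries, and black bars are means of 3. Red points lie close together for genes such as Jr4SG00060100, while blue points spread widely for Jr3DG00220700, Jr5SG00117400 and Jr6DG00182100.

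The spread between libraries was wider in late-flowering than in early-flowering buds for 60 of the 69 genes. The median coefficient of variation was 25.2% among early-flowering and 62.8% among late-flowering libraries. Counting error alone would give lower medians, 6.19% in early-flowering and 13.0% in late-flowering buds. Among the other 17254 genes at 5 CPM or more, the medians were 9.43% in early-flowering and 10.8% in late-flowering buds. Among 1337 genes that met the other conditions with a log2 ratio from 1 up to 2, the medians were 18.94% and 33.08%. Among 116 genes chosen with the bud types exchanged, and so higher in late-flowering buds, the medians were 29.99% and 48.45%. A wider spread in late-flowering buds was thus not particular to the 69. Of the 69, the highest early-flowering library was under 2 times the lowest for 55 genes and 5 times or more for 0. In late-flowering buds the same ratio was under 2 for 23 genes, and for 29 it was 5 or more or the lowest library had no counts.

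The steadiest genes in early-flowering buds were Jr4SG00060100, Jr3DG00134000, Jr3SG00040000 and Jr00G00010700, with coefficients of variation of 2.85% to 5.13%. Jr4SG00060100 had 39.7, 41.9 and 40.3 FPKM in early-flowering buds, against 9.67, 8.70 and 6.07 FPKM in late-flowering buds. Jr3DG00134000 had 25.9, 24.1 and 25.2 FPKM in early-flowering buds, against 6.24, 5.46 and 6.01 FPKM in late-flowering buds. Jr00G00010700 had 43.7, 39.5 and 41.3 FPKM in early-flowering buds, against 9.16, 8.22 and 6.29 FPKM in late-flowering buds. In these 3 genes the late-flowering values were also fairly even, with coefficients of variation of 6.85% to 22.8%. Jr3SG00040000 was as steady in early-flowering buds, at 4.39, 4.44 and 4.08 FPKM, but had 1.34, 0.801 and 0.258 FPKM in late-flowering buds.

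The least steady in early-flowering buds, after Jr7SG00059500, were Jr7SG00132600, Jr4DG00034900 and Jr3DG00022100. Jr7SG00132600 had 2.05, 7.95 and 6.45 FPKM in early-flowering buds, against 1.56, 0.528 and 0.535 FPKM in late-flowering buds. Jr4DG00034900 had 15.0, 41.7 and 47.8 FPKM in early-flowering buds, against 8.39, 2.39 and 1.36 FPKM in late-flowering buds. In both, early-flowering replicate 1 was the low library and late-flowering replicate 1 the high one, so these replicates drew near each other. Jr3DG00022100 had 8.90, 5.40 and 15.1 FPKM in early-flowering buds, against 1.58, 2.01 and 2.69 FPKM in late-flowering buds, with its late-flowering maximum in replicate 3.

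One late-flowering library lay nearer to the early-flowering level than the others. Late-flowering replicate 1 was the highest of its type for 51 of the 69 genes, replicate 2 for 12 and replicate 3 for 6, and replicate 3 was the lowest for 51. For the other genes at 5 CPM or more, replicate 1 was the highest for 35.4%, close to an even division. Measured as a percentage of each gene's early-flowering mean, the median over the 69 was 26.0% in late-flowering replicate 1, 16.6% in replicate 2 and 9.56% in replicate 3. The early-flowering mean stood a median log2 of 1.84 above late-flowering replicate 1, 2.42 above replicate 2 and 3.02 above replicate 3. Set against replicate 1 alone, 23 of the 69 genes reached a log2 ratio of 2, against replicate 2 alone 54, and against replicate 3 alone 61.

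The same order appeared beyond the 69. Among 1337 genes that met the other conditions with a log2 ratio from 1 up to 2, late-flowering replicate 1 was the highest of its type for 79.5% and early-flowering replicate 1 the lowest of its type for 78.2%. Within the 69, early-flowering replicate 1 was the lowest for 34 genes. The mirrored rule, with the bud types exchanged, took 116 genes that were higher in late-flowering buds, and late-flowering replicate 1 was the lowest of its type for 102 of them. Of the 116, early-flowering replicate 1 was the highest of its type for 75 and late-flowering replicate 3 the highest of its type for 88. Late-flowering replicate 1 thus lay on the early-flowering side of its type in both directions, and late-flowering replicate 3 on the opposite side. Early-flowering replicate 1 lay on the late-flowering side of its type more often than the other early-flowering libraries. Late-flowering replicate 1 had 18284067 gene counts in total, within the range of the 6 libraries, 16897407 to 23429891. What sets these libraries apart was not tested.

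**Figure D3:**
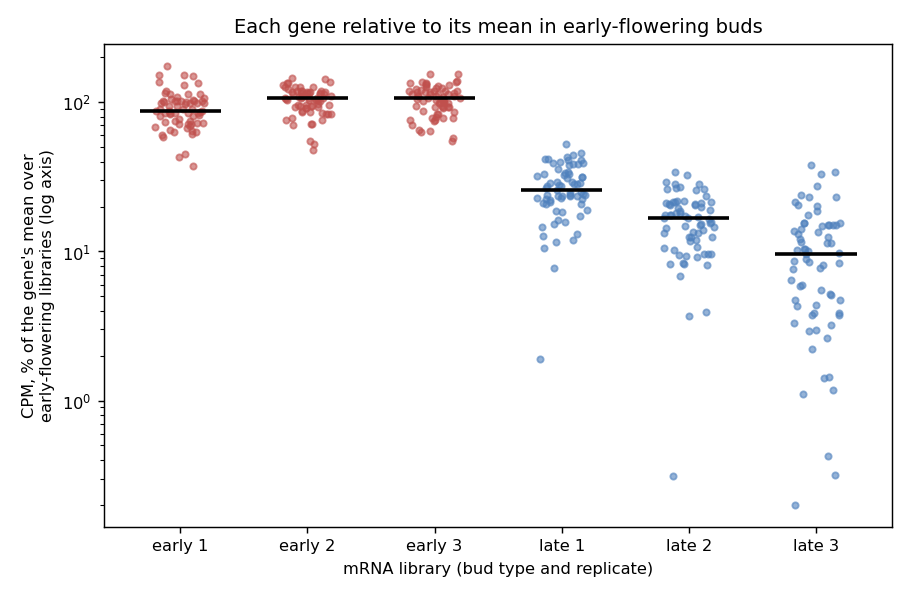
Each point is one of the 69 genes in a library, as a percentage of that gene's mean CPM over early-flowering libraries on a log axis, with early-flowering libraries in red on the left and late-flowering libraries in blue on the right. Black bars are medians, at 88.0%, 106% and 107% in early-flowering replicates 1, 2 and 3 and at 26.0%, 16.6% and 9.56% in late-flowering replicates 1, 2 and 3; the gene without counts is drawn at the lower edge.

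The size of the set rested on these libraries. Without late-flowering replicate 1, 255 genes met the rule, of which 65 were among the 69. Without late-flowering replicate 3, only 39 met it, of which 34 were among the 69. With TMM scaling of the libraries, which moved the log2 ratios of the 69 by a median of −0.10, 43 genes met the rule and all 43 were among the 69. Of the 26 genes lost, 25 had ratios of 1.91 or more but under the limit on that scale, and 1, Jr1DG00003200, fell under the limit of 5 CPM.

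The genes at the edges of the rule differed little across it. Just inside the ratio limit lay Jr5DG00179800 at 2.003 and Jr3SG00040000 at 2.007, and just outside it Jr2DG00259600 and Jr3DG00068300, both at 1.993. Just inside the level limit lay Jr1DG00003200 at 5.04 CPM and Jr8DG00081100 at 5.63 CPM, and just outside it Jr1SG00181900 at 4.44 CPM and Jr2SG00053100 at 4.35 CPM. Overlap between the bud types removed 1 gene, Jr4SG00039400, whose lowest early-flowering value was 0.984 of its highest late-flowering value. Among the 69 this ratio ran from 1.31, in Jr7SG00132600, and 1.54, in Jr3DG00190600, to 6.82, with a median of 2.64.

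The 69 genes were scattered over all 16 chromosomes. D chromosomes held 36 and S chromosomes 31, while 2 carried IDs with 00 in place of a chromosome. As a share of the listed genes this is 0.198% on D and 0.237% on S chromosomes, both close to the 0.220% over all. The IDs with 00 numbered only 139, so their 2 genes were 1.44% of them. Chromosome 7S held 9 genes among 1401 listed (0.642%) and chromosome 3D held 9 among 2437 (0.369%). At the other end, 6S held 1 among 1420 and 2D held 2 among 2662. The partner chromosomes 3D and 3S together held 15, and 7D and 7S together 14, so these chromosomes carried 42.0% of the 69 genes and 23.6% of the listed genes. No test was made of this unevenness. With each chromosome divided by ID order into equal first, middle and last portions, these held 23, 23 and 21 genes. The mirrored set of 116 genes had 29 on chromosomes 3 and 7 together, of which 24 were on chromosome 3.

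**Figure D4:**
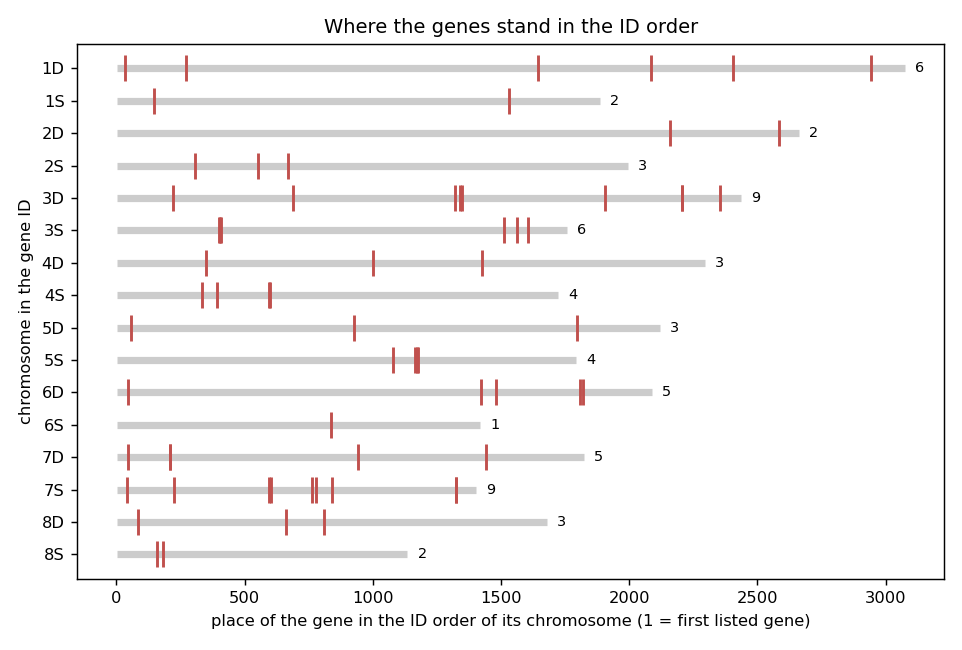
Grey bars are the 16 chromosomes named in the gene IDs, with length in listed genes, red ticks are the 67 of the 69 genes that carry a chromosome, and the number at the right counts them. Ticks are spread along most bars, with 9 each on 3D and 7S and with close groups on 3D, 3S, 4S, 5S, 7D and 7S.

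Some of the 69 stood side by side in the ID order. Serial numbers rise by 100 from one listed gene to the next on every chromosome, so a run of consecutive IDs could be read directly. In all, 4 genes fell into runs, forming 2 adjoining pairs, 5.80% of the 69. The 69 are 0.220% of all listed genes, but that share is of another kind. It is not the share in runs that a random placement would give. Without late-flowering replicate 1, 18 of the 255 genes then chosen stood in runs, and without late-flowering replicate 3, 2 of 39 did. Under the mirrored rule 9 of 116 genes did so (7.76%), with a longest run of 3. Successive genes of the 69 on a chromosome were a median of 174 places apart, from 1 to 1385, and 10 of the 52 such steps were of at most 10 places. Neither the runs nor the steps were tested against a random placement.

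The first pair was Jr3DG00220700, given above, with Jr3DG00220800. Jr3DG00220800 had 55.2, 52.6 and 58.5 FPKM in early-flowering buds, against 29.2, 8.37 and 0.783 FPKM in late-flowering buds (log2 ratio 2.10). It was even among early-flowering libraries, which its neighbour was not, and both genes were highest in late-flowering replicate 1 within that type. The second pair lay on 7D. Jr7DG00021000 had 13.7, 21.4 and 25.4 FPKM in early-flowering buds, against 7.21, 2.16 and 1.56 FPKM in late-flowering buds. Jr7DG00021100 had 3.90, 9.23 and 6.04 FPKM in early-flowering buds, against 2.10, 0.249 and 0.213 FPKM in late-flowering buds. Both genes of this pair were lowest in early-flowering replicate 1 and highest in late-flowering replicate 1 within their types. Whether adjoining genes share reads, or are copies of each other, was not tested, since neither sequences nor the counting method are given in the sources used here.

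Looser groups appeared when up to 5 other listed genes could stand between. Then 13 genes formed 6 groups. Of the 11 genes between them, 8 averaged under 1 CPM in both bud types, 6 of these with no counts at all. Such genes were not counted over all listed genes, so no departure from the background is claimed. Low counts were common, since 21740 of the 31425 listed genes passed the edgeR filter on low counts. The groups are described here because their members were seen to lie close, not by the rule for named genes. On 3S, Jr3SG00040000, Jr3SG00040300 and Jr3SG00040700 were separated only by genes without counts. The first and second of these have the same listed length of 1386 bases. Jr3SG00040300 had 12.0, 10.1 and 13.0 FPKM in early-flowering buds, against 4.89, 1.69 and 0.0369 FPKM in late-flowering buds, the last from 1 read. Jr3SG00040700 had 14.5, 16.0 and 13.7 FPKM in early-flowering buds, against 5.62, 2.68 and 0.750 FPKM in late-flowering buds. All 3 genes of this group were even in early-flowering buds and had their highest late-flowering value in replicate 1 and their lowest in replicate 3.

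On 5S, Jr5SG00117400 and Jr5SG00117700 stood 3 places apart, and Jr5SG00116600 lay 8 places before them. Jr5SG00117700 had 5.23, 9.36 and 12.2 FPKM in early-flowering buds, against 1.13, 1.84 and 0 FPKM in late-flowering buds. It shared with Jr5SG00117400 the highest early-flowering value in replicate 3, the highest late-flowering value in replicate 2 and a value at or near 0 in late-flowering replicate 3. On 7S, Jr7SG00132400 had 50.6, 60.7 and 64.4 FPKM in early-flowering buds, against 26.9, 7.30 and 1.76 FPKM in late-flowering buds, 2 places from Jr7SG00132600. The gene between them, Jr7SG00132500, averaged 2.22 CPM in early-flowering and 0.574 CPM in late-flowering buds, under the level limit of the rule. On 4S, Jr4SG00059700 and Jr4SG00060100 differed in their spread among late-flowering libraries. The first had 1.26, 0.349 and 0.248 FPKM in late-flowering buds and the second 9.67, 8.70 and 6.07 FPKM. Between these genes lay 3 others. Jr4SG00059800 averaged 39.4 CPM in early-flowering and 37.8 CPM in late-flowering buds, Jr4SG00059900 averaged 29.5 CPM in early-flowering and 48.8 CPM in late-flowering buds, and Jr4SG00060000 was under 1 CPM in both.

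Genes next to the 69 were compared between the bud types as well, since the rule used their values only to leave them out. The nearest listed gene on each side gave 133 neighbours that were not among the 69. The filter on low counts passed 21740 of all 31425 listed genes and 77 of the 133 neighbours. Of these, 14 were called higher in early-flowering buds (18.2%) and 4 lower (5.19%), in an edgeR quasi-likelihood fit of 21740 genes at a Benjamini-Hochberg adjusted p of 0.05. Over all genes tested, 14.2% were called higher and 13.0% lower. Without the 69, as for the neighbours, these shares were 13.9% and 13.0%. The share called higher thus lay near the background. The share called lower was under it, as it was 2 places away (6.02%). The median log2 fold change of the tested neighbours was 0.13, against −0.01 for tested genes not among the 69. These differences were not tested. Farther out, from 2 to 10 places away, the share called higher ran from 10.2% to 20.5% and the share called lower from 6.02% to 22.4%, with no steady course.

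The count called higher depended on single libraries, together with the count over all genes. It was 2 of 80 tested neighbours without early-flowering replicate 2 (all genes 2.88%), 5 of 78 without early-flowering replicate 3 (4.85%), 6 of 80 without late-flowering replicate 2 (5.79%) and 9 of 79 without late-flowering replicate 3 (8.60%). The count was 14 of 78 without early-flowering replicate 1 (17.9%, all genes 13.5%). It was 17 of 82 without late-flowering replicate 1 (20.7%, all genes 16.5%). In each case the neighbours' share called higher lay near that of all genes.

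**Figure D5:**
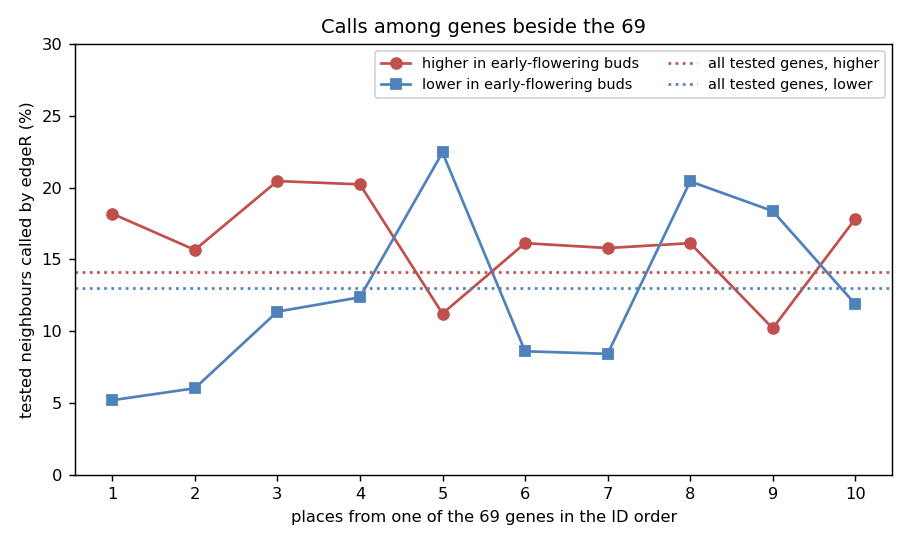
Share of tested neighbours called higher (red circles) or lower (blue squares) in early-flowering buds by the edgeR test, against their distance in places from one of the 69 genes, with dotted lines for all tested genes (14.2% higher and 13.0% lower). The red points lie between 10.2% and 20.5% on both sides of their dotted line.

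Among the 14 neighbours that rose, log2 fold changes ran from 0.41 to 3.64; those named here were chosen after their values were seen. The highest was that of Jr4SG00039400, the gene that only the overlap condition kept out of the set. It had 1.05, 13.2 and 14.5 CPM in early-flowering buds, against 0.984, 1.07 and 0.0511 CPM in late-flowering buds (log2 fold change 3.64, SE 1.09, edgeR adjusted p = 0.0482). Its early-flowering replicate 1 was at the late-flowering level. Jr4SG00039300 beside it, one of the 69, had 29.7, 57.4 and 45.4 CPM in early-flowering buds, against 11.5, 14.5 and 2.86 CPM in late-flowering buds. The lowest adjusted p was that of Jr2SG00030400, beside Jr2SG00030500, at 106 ± 10.2 CPM in early-flowering and 37.1 ± 3.96 CPM in late-flowering buds (SD, n = 3 each). Its log2 fold change was 1.41 with an SE of 0.12 (adjusted p = 0.00298, edgeR). Of the 4 neighbours that fell, Jr6DG00004800 had the largest change, at 18.3 ± 5.87 CPM in early-flowering and 58.0 ± 16.2 CPM in late-flowering buds (SD, n = 3 each). Its log2 fold change was −1.76 with an SE of 0.30 (adjusted p = 0.0106, edgeR). It stands next to Jr6DG00004700, one of the 69, which had 12.8, 17.9 and 11.7 CPM in early-flowering buds, against 2.95, 4.01 and 2.20 CPM in late-flowering buds. These adjoining genes thus went opposite ways between the bud types.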

How the data were processed

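The deposited mRNA table holds read counts and FPKM values per gene for 6 libraries, per the file headers. The FPKM values the authors gave equal count over listed length over library total (largest relative difference 3.8e-08). FastQC, HISAT2, Cufflinks and DESeq2 are named in the submitters' processing notes without roles, while for genome build, annotation and counting method the entry reads "not given in the sources used here", and the libraries were made with a stranded kit after poly(A) selection and ribosomal RNA removal, per the labels. The miRNA libraries were not used here.

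CPM used library totals of 16897407 to 23429891 counts. Chromosome and order were read from the IDs, whose step is 100. The genes and the descriptions were chosen with earlier results of these data known. Named genes are the 6 highest ratios, the 6 highest FPKM means, the 4 highest and 4 lowest early-flowering coefficients of variation, the genes in runs and those at the limits.

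The test, made only for genes beside the 69, was that of edgeR 4.0.16 under R 4.3.3 (TMM, filterByExpr with a minimum count of 10, robust quasi-likelihood fit, Benjamini-Hochberg adjustment over 21740 genes, threshold 0.05). On simulated counts a larger share of the calls was false than the threshold of 0.05 allows, so calls near it are less certain than their adjusted p. Alternatives were DESeq2 1.42.0, other scalings, filters and limits, leaving out each library, and a replicate block. The p-values reflect the spread among these libraries alone, which may be technical. Floors of 3 counts cover counting error only.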

Additional observations from a re-analysis of the deposited data

How the results depend on the processing

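Of 62 alternative values computed, 40 stayed within 1.5 times the reported one. The number of genes meeting the rule, 69, was 43 with TMM, 44 with DESeq2 size factors, 39 with 1 CPM added, 125 with medians, 1406 at a log2 ratio of at least 1 and 3 at one of at least 3; leaving out single libraries gave 39 to 255. TMM moved the median log2 ratio of genes at 5 CPM or more to −0.03, against 0.08 with column sums. The 4 genes in runs became 13 with up to 5 genes between, 11 when only genes with counts in every library set the order, 2 with TMM, 198 at a log2 ratio of at least 1 and 2 to 18 over left-out libraries. The 14 neighbours called higher became 7 with at least 10 CPM in 3 libraries, 2 at an adjusted p under 0.01, 27 with 2 genes on each side and 2 to 17 over left-out libraries. With the replicate block they were 3, at 3.28% of all genes. Same-numbered libraries did not deviate together (correlations across genes −0.36, −0.04 and −0.33), and 0 of 6 correlated best with their own number. Changed limits move these counts by construction; for the other settings the cause was not tested. The share of genes on D chromosomes stayed between 48.8% and 57.0%, and the counts of genes highest in each library changed by at most 1. Depth limits late-flowering values of 4 genes with 3 counts or fewer in a library.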
